A study of Mus musculus with 6 samples.

Results

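The 9 chemokine ligand genes Xcl1, Ccl3, Ccl4, Ccl5, Ccl6, Ccl9, Cxcl2, Cxcl9 and Cxcl10 were followed in RNA from liver natural killer (NK) cells of wild-type (WT) mice. They are the rows of the deposited gene table that carry these symbols, 9 of 55414 genes, and each symbol was found. The design held 6 libraries of 2 groups, all taken on day 3. The 3 metformin libraries came from mice treated at 200 mg per kg for 3 days, and the 3 PBS libraries came from mice given phosphate-buffered saline as the control. Metformin is a glucose-lowering drug that acts on mitochondrial respiration. The labels give neither the age nor the sex of the mice, nor the gate by which the cells were isolated, nor whether each library is a separate mouse, so p-values measure the spread between these libraries, which may be technical.

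Chemokines are small secreted proteins that steer leukocytes through G protein-coupled receptors, and they are grouped as C, CC or CXC by the spacing of their first cysteines. NK cells are known as a source of XCL1, which attracts cross-presenting dendritic cells through XCR1, and of CCL3, CCL4 and CCL5, CC chemokines that draw monocytes and lymphocytes, CCL3 and CCL5 in part through CCR1. CCL6 and CCL9 are rodent CC chemokines usually described in myeloid cells. CXCL9 and CXCL10 are induced by interferon and draw cells that carry CXCR3, while CXCL2 recruits neutrophils through CXCR2.

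The files count between 22152167 and 24266803 estimated reads per metformin library, against 24838302 to 30161214 per PBS library. Mitochondrially encoded genes took 0.720% of the reads in metformin library 3, and 0.429% to 0.515% in the other 5 libraries. The cells carried NK markers throughout: 13 of 13 listed NK genes were detected, and their summed level lay between 25572 and 29356 CPM (counts per 1000000 reads, scaled by the TMM method) in metformin libraries, against 23819.8 to 26075 CPM in PBS libraries. Of these NK genes 5 were higher and 3 lower in every metformin library than in every PBS library, beside 9.49% of all genes higher and 9.63% lower. The 5 higher were Klrb1c, Nkg7, Gzmb, Fcer1g and Tyrobp, and the 3 lower were Prf1, Eomes and Tbx21. Eomes had 216, 212 and 208 CPM with metformin, against 312, 342 and 329 CPM with PBS. No listed marker of any of 14 cell types was at 0 in all libraries. In bulk samples, fewer cells of a type and less RNA per cell cannot be told apart.

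The regulatory sequence upstream of the genes is shown for a pair of ligands that were high in these cells, Xcl1 and Ccl3, and a pair that were low, Cxcl2 and Cxcl10. Each is the RefSeq sequence of the 250 bases before the annotated start, on GRCm38.p6 and in the direction of the gene. The intervals are chr1:164935523-164935772 on the minus strand for Xcl1, chr11:83649379-83649628 on the minus strand for Ccl3, chr5:90903649-90903898 on the plus strand for Cxcl2 and chr5:92348890-92349139 on the minus strand for Cxcl10. Capitals mark matches to any of 4 patterns searched on both strands: NF-kB (GGG and CC around any 5 bases), AP-1 (TGA and TCA around any base), the interferon-stimulated response element or ISRE (a pair of TTTC around any 2 bases) and the STAT-bound GAS element (TTC and GAA around any 3 bases).
Xcl1: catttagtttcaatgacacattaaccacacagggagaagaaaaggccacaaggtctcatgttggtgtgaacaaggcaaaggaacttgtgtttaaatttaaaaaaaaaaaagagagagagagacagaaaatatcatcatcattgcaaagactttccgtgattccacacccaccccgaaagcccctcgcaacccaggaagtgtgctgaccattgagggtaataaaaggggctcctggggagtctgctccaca
Ccl3: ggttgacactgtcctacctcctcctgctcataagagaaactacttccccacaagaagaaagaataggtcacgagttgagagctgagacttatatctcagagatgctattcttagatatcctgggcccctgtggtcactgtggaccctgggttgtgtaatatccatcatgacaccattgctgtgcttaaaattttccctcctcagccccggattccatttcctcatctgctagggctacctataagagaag
Cxcl2: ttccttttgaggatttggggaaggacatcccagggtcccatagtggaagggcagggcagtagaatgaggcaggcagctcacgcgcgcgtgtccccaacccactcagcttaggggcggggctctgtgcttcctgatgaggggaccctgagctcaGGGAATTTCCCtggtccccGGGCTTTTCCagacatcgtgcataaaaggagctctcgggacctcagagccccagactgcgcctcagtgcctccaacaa
Cxcl10: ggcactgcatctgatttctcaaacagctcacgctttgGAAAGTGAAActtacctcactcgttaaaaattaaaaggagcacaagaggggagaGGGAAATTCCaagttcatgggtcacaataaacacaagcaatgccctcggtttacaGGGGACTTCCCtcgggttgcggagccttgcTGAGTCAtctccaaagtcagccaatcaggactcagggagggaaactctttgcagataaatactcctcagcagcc
No pattern matched in the window of Xcl1 or Ccl3. The Cxcl2 window held 3 NF-kB matches, of which a pair overlap at 97 to 87 bases before the start. The Cxcl10 window also held 3 NF-kB matches, a pair of them overlapping, with 1 AP-1 match at 74 to 68 bases and 1 ISRE match at 213 to 204 bases before the start. Of 32851 promoter windows of this length, 45.8% held the NF-kB pattern, 6.75% the AP-1 pattern, 2.98% the ISRE and 7.02% the GAS. A match is a description of letters and not a bound site. Windows were found for 7 of the 9 genes: Ccl6 had no match, Cxcl9 had 2 overlapping NF-kB matches, and Ccl9 had 1 NF-kB and 1 AP-1 match. Ccl4 and Ccl5 are named only.

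The table places the 5 CC genes on chromosome 11, between 83416604 at the start of Ccl5 and 83555509 at the end of Ccl4, in the order Ccl5, Ccl9, Ccl6, Ccl3, Ccl4. It places the 3 CXC genes on chromosome 5, Cxcl2 at 91051730 to 91053797, Cxcl9 at 92469206 to 92475938 and Cxcl10 at 92494497 to 92496748, and Xcl1 on chromosome 1 at 164759213 to 164763096. These are the table's own coordinates, whose build it does not state, and they differ from the GRCm38.p6 positions above. Its gene length, that of the longest transcript, was under 800 bases for 4 ligands: 523 bases for Xcl1, 660 for Ccl4, 668 for Ccl5 and 766 for Ccl3. The other 5 were longer, with 1440 bases for Ccl6, 2066 for Cxcl2, 2230 for Cxcl10, 2889 for Cxcl9 and 3006 for Ccl9.

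The 9 ligands ranged over more than 4 orders of magnitude in level, from Ccl5 near the top of the transcriptome to Cxcl9 with a handful of reads, as the plot of TPM by library shows. Levels between genes are compared in TPM, transcripts per 1000000, which divides by length. Ccl5 averaged 12479 TPM over all 6 libraries, Xcl1 1436 TPM, Ccl4 1077 TPM and Ccl3 273 TPM. Ccl6 averaged 36.4 TPM, Ccl9 14.3 TPM, Cxcl10 4.43 TPM, Cxcl2 1.73 TPM and Cxcl9 0.417 TPM. Ccl5 had rank 2 among all genes in TPM in 5 libraries and rank 3 in PBS library 2. It made up 79.7% to 82.0% of the summed TPM of the 9 ligands in metformin libraries, against 82.0% to 83.4% in PBS libraries. The sum of the 9 ligands was 1.42% to 1.85% of all TPM in metformin libraries and 1.40% to 1.53% in PBS libraries.

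**Figure D1:**
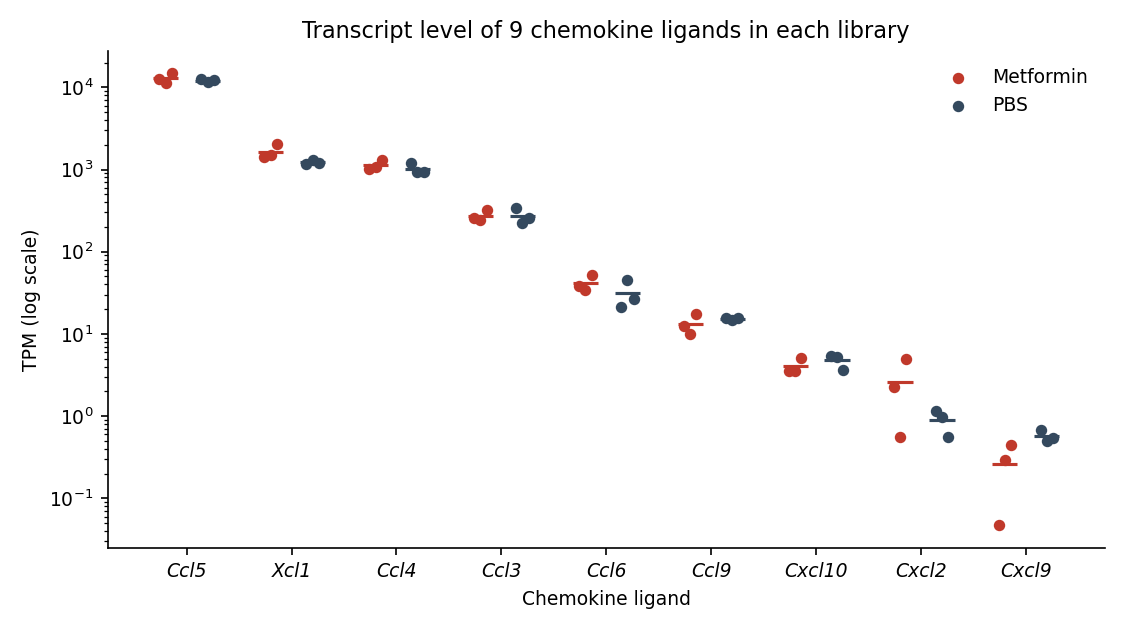
TPM (log scale) of each chemokine ligand in each library, with metformin left of PBS for every gene; points are libraries and short lines are group means (n = 3 each). Ccl5 lies between 11317 and 14794 TPM in the 6 libraries, while Cxcl9 lies below 1 TPM in all 6.

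Most neighbours in this order were separated beyond their spread. The 6 values of Ccl5 were all above those of Xcl1, by a mean of 8.69-fold, and those of Ccl4 were all above those of Ccl3, by 3.95-fold. Ccl3 stood 7.49-fold above Ccl6, Ccl6 2.54-fold above Ccl9 and Ccl9 3.24-fold above Cxcl10, each without overlap of the 6 values. The ranges of Xcl1 and Ccl4 overlapped, with Xcl1 the higher in 5 of 6 libraries and a ratio of 0.982 to 1.55. The ranges of Cxcl10 and Cxcl2 and those of Cxcl2 and Cxcl9 also overlapped.

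Against PBS, metformin gave no ligand a difference that passed the test over all genes. The test was edgeR's quasi-likelihood test with Benjamini-Hochberg adjustment over 15527 genes at 0.05, and all 9 ligands passed its filter on low counts. It called 0 of the 9 ligands and 0 of all genes (0%), with 0.125 the smallest adjusted p of any gene. At an unadjusted p under 0.05, 1 ligand, Xcl1, lay under the threshold, beside 1610 of all genes (10.4%); it was higher with metformin, as were 5.29% of all genes, and 0 ligands were lower, beside 5.08%. The groups did not overlap in CPM for 1 ligand, Xcl1 again, beside 19.1% of all genes, of which 9.49% were higher and 9.63% lower with metformin. At 9 genes, 1 ligand is near either background share. DESeq2 called 299 genes (1.93%) with 1 ligand, Xcl1, among them, and limma-voom called 0 genes and 0 ligands. The estimates of 6 ligands were above 0 and those of 3 below, with a median log2 fold change of 0.31, beside 0.01 over all genes tested.

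Xcl1, lymphotactin, the C chemokine whose receptor marks cross-presenting dendritic cells, was the only ligand whose groups did not overlap in CPM. It had 285, 286 and 417 CPM in metformin libraries 1 to 3, against 211, 216 and 201 CPM in PBS libraries 1 to 3. Every metformin value lay above every PBS value, as in 9.49% of all genes, and metformin library 3 was far above the others. The means were 329 ± 75.8 CPM with metformin and 209 ± 7.75 CPM with PBS (SD, n = 3 each). The log2 fold change was 0.65 with a standard error (SE) of 0.16, or 1.57-fold, with an unadjusted p of 0.00295 and an adjusted p of 0.276 by edgeR. DESeq2 gave 0.65 with an adjusted p of 0.00861. Without metformin library 3, edgeR gave 0.44 (SE 0.06) with an adjusted p of 0.0629.

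Per length, Xcl1 had 1410.1, 1520.1 and 2022 TPM with metformin, against 1174, 1297 and 1193 TPM with PBS, again without overlap. In TPM the groups did not overlap for 20.1% of all genes, and 4.82% had every metformin library above every PBS library. The log2(TPM + 1) difference of Xcl1 by limma was 0.42 (SE 0.14, adjusted p 0.396), while the median of all genes lay at -0.09 on that scale. The Xcl1 gene lies within the span of the long noncoding gene Gm20743, which is on the opposite strand. Strand use in counting is not stated in the labels or the table, and Xcl1's estimated counts are not whole numbers, so reads of this pair cannot be fully told apart. Gm20743 had 17.0, 17.8 and 18.1 CPM with metformin and 15.2, 15.8 and 16.2 CPM with PBS, a log2 difference of 0.17 (SE 0.13; edgeR adjusted p 0.671).

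Ccl5, RANTES, a ligand of CCR1 and CCR3 among other receptors, was the most abundant ligand and had groups that overlapped. It had 2604, 2171 and 3100.4 CPM in metformin libraries, against 2294, 1956 and 2094 CPM in PBS libraries. Metformin library 2 lay below PBS library 1, and metformin library 3 was the highest. By edgeR its log2 fold change was 0.31 (SE 0.14) with an adjusted p of 0.478. In TPM the groups were closer, at 12878 ± 1765 with metformin and 12080.4 ± 522 with PBS (SD, n = 3 each), with a log2(TPM + 1) difference of 0.08 (SE 0.13).

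Ccl4, MIP-1beta, which attracts monocytes and lymphocytes, was close to Xcl1 in level. It had 302, 296 and 397 CPM with metformin, against 317, 232 and 233 CPM with PBS. PBS library 1 was above metformin libraries 1 and 2, so the groups overlapped. The log2 fold change was 0.35 (SE 0.17, adjusted p 0.507 by edgeR), and in log2(TPM + 1) it was 0.16 (SE 0.14).

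Ccl3, MIP-1alpha, lies next to Ccl4 on the chromosome and encodes a ligand of CCR1. It had 89.1, 80.1 and 119 CPM with metformin, against 110.3, 70.2 and 79.4 CPM with PBS. Metformin library 3 and PBS library 1 were the highest, and the groups overlapped widely. Its log2 fold change was 0.15 (SE 0.20, adjusted p 0.807 by edgeR), and its log2(TPM + 1) difference was -0.01 (SE 0.17).

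Ratios between the short ligands, which were chosen after their values were seen, set genes of like length side by side within a library. Xcl1 per Ccl4 in CPM was 0.944, 0.964 and 1.05 in metformin libraries, against 0.664, 0.933 and 0.861 in PBS libraries. The groups did not overlap, but metformin library 1 and PBS library 2 lay close together, and the same ratio in TPM overlapped. Xcl1 per Ccl5 in CPM was 0.110 to 0.134 with metformin and 0.0918 to 0.111 with PBS, and overlapped. Xcl1 per Ccl3 in CPM was 3.20, 3.56 and 3.50 with metformin, against 1.91, 3.08 and 2.53 with PBS, without overlap, and overlapped in TPM. Ccl4 per Ccl3 in CPM was 3.33 to 3.70 with metformin and 2.88 to 3.30 with PBS, without overlap, and overlapped in TPM. How many other pairs of genes would separate in this way was not counted.

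The fold changes of the short ligands stand beside a trend over all genes, in which shorter genes had higher median fold changes. Genes of up to 500 bases had a median log2 fold change of 0.65 (559 genes), those of 500 to 800 bases 0.33 (609 genes) and those of 800 to 1200 bases 0.20 (990 genes). The median was 0.11 for 1200 to 2000 bases, -0.01 for 2000 to 4000 bases and -0.12 above 4000 bases. As the plot of fold change against gene length shows, Ccl4 and Ccl5 sat on this line, Ccl3 between the line and 0, and Xcl1 above it.

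**Figure D2:**
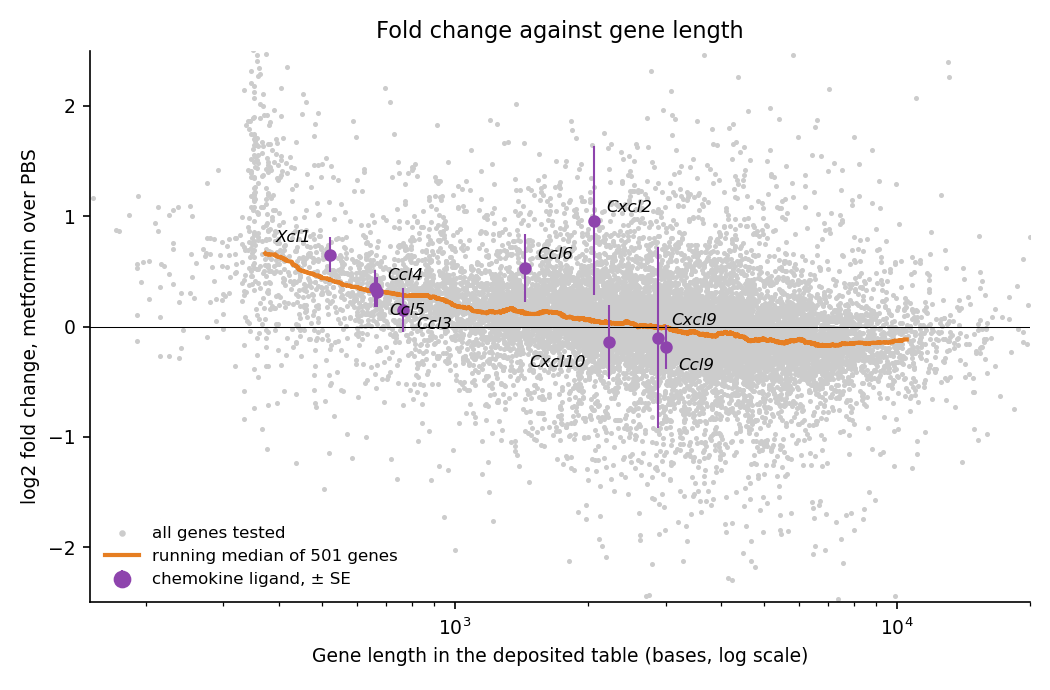
log2 fold change (metformin over PBS, edgeR) against gene length in bases (log scale) for the genes tested, with the running median of neighbouring genes as a line and the 9 ligands as points with SE bars; 65 of 15527 genes lie outside the axes. Ccl4 and Ccl5 lie on the line, Ccl3 between it and 0, and Xcl1, Ccl6 and Cxcl2 above it.

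The trend varied between the libraries of each group. The median of the genes under 800 bases, as log2 CPM centred on each gene's mean, was 0.30, 0.03 and 0.34 in metformin libraries 1 to 3, against 0.11, -0.34 and -0.29 in PBS libraries 1 to 3. Metformin library 2 thus lay below PBS library 1. Spearman's correlation of the centred value with gene length, across genes within a library, was -0.110, 0.131 and -0.422 in metformin libraries, against 0.052, 0.290 and 0.327 in PBS libraries. Genes are not independent replicates, and the correlation is a description.

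Ccl5 followed the trend in each library within 0.12 on the log2 scale. Its centred log2 CPM was 0.15, -0.11 and 0.41 in metformin libraries, where the trend at its length was 0.19, 0.01 and 0.33. In PBS libraries Ccl5 was at -0.03, -0.26 and -0.16, where the trend was 0.07, -0.26 and -0.23. The highest and lowest libraries of Ccl5 were those of the trend. Xcl1 was at 0.13, 0.13 and 0.68 in metformin libraries, where the trend at its length was 0.27, 0.02 and 0.35. In PBS libraries Xcl1 was at -0.31, -0.27 and -0.37, where the trend was 0.11, -0.34 and -0.29. Xcl1 therefore departed from the trend most in metformin library 3, by 0.33, and in PBS library 1, by -0.41. Ccl4 and Ccl3 also had their highest metformin value in library 3, where the trend was 0.33 and 0.32, and Ccl3 was 0.25 above the trend in PBS library 1.

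**Figure D3:**
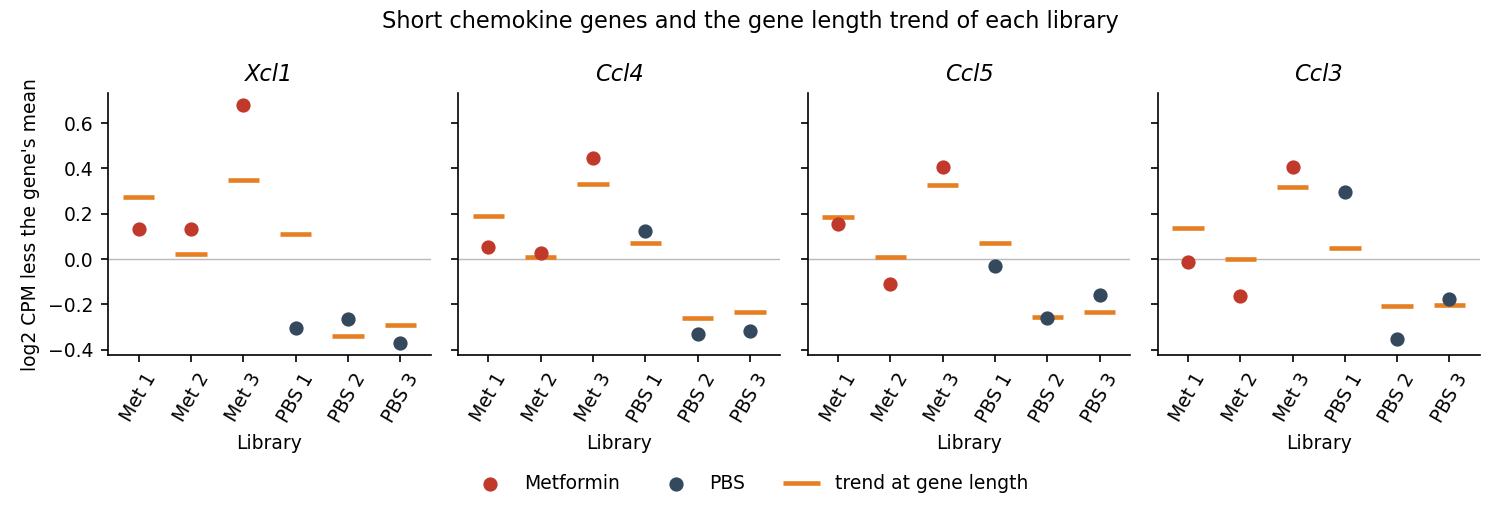
log2 CPM less the gene's mean over the 6 libraries for Xcl1, Ccl4, Ccl5 and Ccl3 (points; metformin libraries left of PBS libraries), with the lowess trend of all genes at that gene's length in the same library (orange lines). Points of Ccl5 lie within 0.12 of the line in all 6 libraries, and Xcl1 in PBS library 1 lies 0.41 below it.

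Set beside the 500 protein-coding genes nearest in length, Ccl5 (0.31, against a median of 0.28) exceeded 55.8% of them and Ccl4 (0.35, against 0.28) exceeded 62.0%. Ccl3 (0.15, against 0.26) exceeded 29.4% of its like-length genes. Xcl1 (0.65, against 0.29) exceeded 88.6% of its like-length genes, whose quartiles were 0.13 and 0.45. Those genes spanned 297 to 948 bases, a range over which the trend itself falls. The 200 nearest spanned 383 to 721 bases, with a median of 0.325, and Xcl1 exceeded 89.0% of them. These sets hold protein-coding genes only, while the lowess trend was drawn through all genes tested. Of the genes of like length around these 4 ligands, 20.4% to 22.0% had an unadjusted p under 0.05, so the 10.4% over all genes is not the share to be met at this length.

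With the length trend of each library removed by a lowess offset before the edgeR fit, the estimates of Ccl4 and Ccl5 came close to 0 and that of Ccl3 was below 0. Ccl5 had a log2 fold change of -0.01 (SE 0.08), Ccl4 0.03 (SE 0.09) and Ccl3 -0.12 (SE 0.12). Xcl1 kept a positive value of 0.24 (SE 0.15), with an unadjusted p of 0.152 and an adjusted p of 0.617. Under this fit 0 of the 9 ligands were called, beside 1 of all genes (0.00644%), and 0 had an unadjusted p under 0.05, beside 10.2% of all genes. Of the 9 estimates, 4 were above 0 and 5 below, with a median of -0.01. With the offset and without metformin library 3, a setting chosen after the data were seen, Xcl1 had a log2 fold change of 0.105 (SE 0.14). What produces the trend was not tested, and the trend and the treatment share the same 6 libraries.

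**Figure D4:**
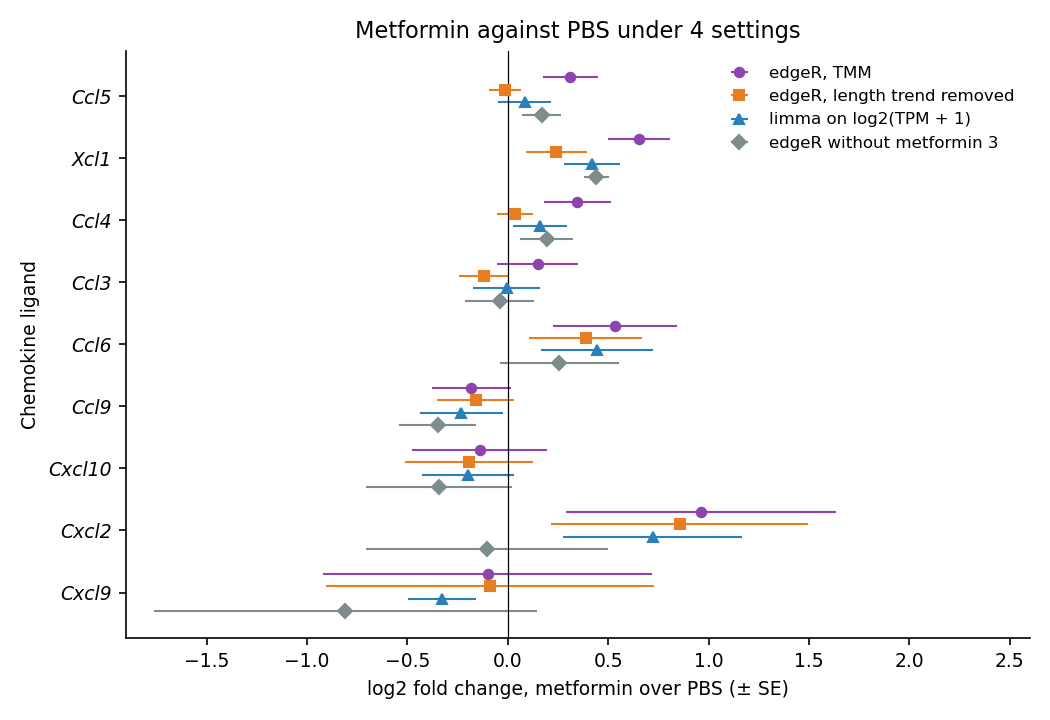
log2 fold change of each ligand, metformin over PBS, with SE bars, under 4 settings: edgeR with TMM factors, edgeR with the length trend removed, limma on log2(TPM + 1), and edgeR without metformin library 3. Xcl1, Ccl4 and Ccl6 stay above 0 under all 4, Ccl3 and Ccl5 lie below 0 with the length trend removed, and Cxcl2 lies at -0.10 without metformin library 3.

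The 5 longer ligands were low, and their estimates kept their sign with the length offset. Ccl6 had 19.7, 18.0 and 30.5 CPM with metformin, against 11.1, 23.0 and 13.1 CPM with PBS. Metformin library 3 was the highest, but PBS library 2 was above metformin libraries 1 and 2. Its estimate was 0.53 on the log2 scale (SE 0.31, adjusted p 0.567 by edgeR) and 0.39 (SE 0.28) with the length offset. Ccl6 exceeded 91.0% of its like-length genes, whose median was 0.12. Ccl6 overlaps the gene E230016K23Rik on the opposite strand.

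Ccl9, MIP-1gamma, was lower in the metformin mean. It had 10.5, 11.7 and 15.0 CPM with metformin, against 15.2, 15.1 and 11.9 CPM with PBS. Metformin library 3 was close to PBS libraries 1 and 2, and PBS library 3 was close to metformin library 2, so the groups overlapped. By edgeR the estimate was -0.18 on the log2 scale (SE 0.20, adjusted p 0.757), and it was below 0 under each of the 21 alternative settings.

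Cxcl10, which attracts CXCR3-bearing T and NK cells, had 2.14, 2.29 and 3.20 CPM with metformin, against 3.35, 3.04 and 2.04 CPM with PBS. Metformin library 3 lay with PBS libraries 1 and 2, and PBS library 3 lay with metformin libraries 1 and 2, so the groups overlapped. Its edgeR estimate was -0.14 on the log2 scale (SE 0.33, adjusted p 0.894). The gene overlaps Art3 on the opposite strand.

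Cxcl9, the other interferon-induced CXCR3 ligand here, rested on 2, 13 and 21 reads in metformin libraries, against 12, 22 and 10 reads in PBS libraries. Its log2 fold change was -0.10 (SE 0.82, adjusted p 0.973 by edgeR), too wide to show a direction at this depth. In TPM it was, beside Xcl1, the other ligand without overlap between groups, at 0.0470, 0.294 and 0.445 with metformin and 0.668, 0.503 and 0.546 with PBS, and 15.2% of all genes lay that way in TPM. The CPM values overlapped.

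Cxcl2, MIP-2, had the highest fold change of the 9 ligands and the widest spread apart from Cxcl9. It rested on 19, 14 and 69 reads in metformin libraries, against 21, 23 and 17 reads in PBS libraries. Only metformin library 3 stood apart, at 3.02 CPM, while metformin libraries 1 and 2 were at 0.832 and 0.584 CPM and PBS libraries at 0.773, 0.944 and 0.560 CPM. The log2 fold change was 0.96 (SE 0.67, adjusted p 0.637 by edgeR), and it was -0.10 (SE 0.60) without metformin library 3.

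The marker sums of macrophages and monocytes, but not those of neutrophils or dendritic cells, were highest in that same library. The bars of Cxcl2, Ccl6 and marker sums show this for the first 2 lists. The rise was not particular to myeloid lists, as the sums of hepatocytes, cholangiocytes (53.0 CPM) and NK cells (29356 CPM) were also highest there. The summed Kupffer cell and macrophage markers were 56.2, 49.1 and 118 CPM with metformin, against 37.7, 61.6 and 55.2 CPM with PBS, and 10 of the 12 markers were highest in metformin library 3. Of these markers, 3 were at 0 in some library and 0 were at 0 in all. The summed monocyte markers were 272, 238 and 610.1 CPM with metformin, against 243, 387 and 317 CPM with PBS, and 3 of 8 were highest in metformin library 3. Lyz2 carried most of that sum, with 231.8, 189 and 549.8 CPM with metformin and 187, 322 and 262 CPM with PBS. Neutrophil markers summed to 45.4, 31.7 and 9.77 CPM with metformin, against 32.2, 23.5 and 17.2 CPM with PBS, and were lowest in metformin library 3. Dendritic cell markers summed to 787, 704 and 819 CPM with metformin, against 515, 892 and 713 CPM with PBS, with PBS library 2 the highest. H2-Ab1, H2-Aa and H2-Eb1 carried most of that sum, with means of 342, 183 and 145 CPM over the 6 libraries. Of the 10 dendritic cell markers, 2 were highest in metformin library 3. Basophil and mast cell markers were between 8.51 and 11.8 CPM with metformin, against 11.0 to 12.8 CPM with PBS. Hepatocyte markers summed to 310.1, 299 and 714 CPM with metformin, against 394, 252 and 308 CPM with PBS, with 14 of 14 highest in metformin library 3. The part of these cells in the values of Cxcl2, Ccl6 and the other ligands was not tested.

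**Figure D5:**
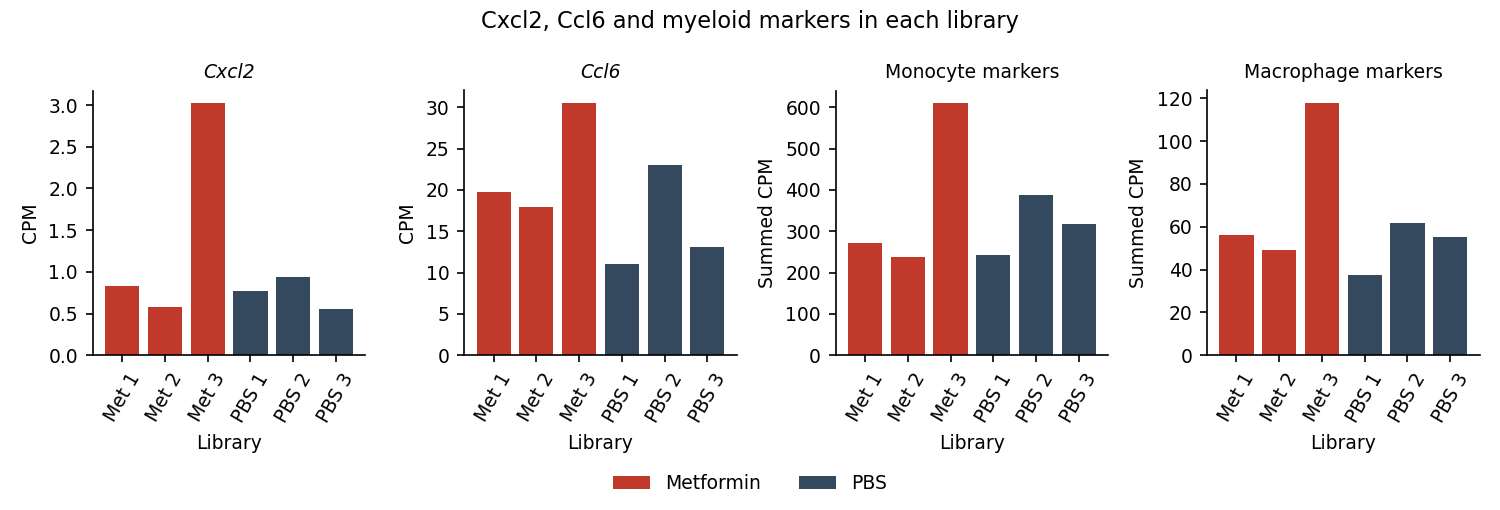
CPM of Cxcl2 and Ccl6, and summed CPM of 8 monocyte markers and of 12 Kupffer cell and macrophage markers, in each library (bars start at 0; metformin left of PBS). Metformin library 3 has the highest bar in all 4 panels, and the other 2 metformin libraries lie within or near the PBS range.

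Marker sums of ILC1 and T cells, but not of B cells, were higher in every metformin library than in every PBS library. The 9 markers of liver ILC1, group 1 innate lymphoid cells and a tissue-resident relative of NK cells, summed to 1856, 1775 and 1847 CPM with metformin, against 1145, 1315 and 1271 CPM with PBS, and 9 of 9 were higher in every metformin library, beside 9.49% of all genes. The 11 T cell markers summed to 1034, 848 and 948 CPM with metformin, against 543, 634 and 653 CPM with PBS. Of these, 5 of 11 were higher in every metformin library, beside the same 9.49%: Cd3e, Cd3d, Cd8a, Trbc1 and Trbc2. The other 6 overlapped: Trac, Cd4, Cd8b1, Cd5, Cd6 and Cd28. Cd3e had 62.2, 40.6 and 24.3 CPM with metformin, against 6.92, 16.6 and 21.3 CPM with PBS. Trbc1 and Trbc2 carried most of the T cell sum. Trbc1 had 385, 371 and 479 CPM with metformin, against 289, 297 and 289 CPM with PBS. Trbc2 had 296, 232 and 310 CPM with metformin, against 164, 190 and 186 CPM with PBS. The 5 B cell markers summed to 194, 105 and 62.8 CPM with metformin, against 22.1, 118 and 135 CPM with PBS, and overlapped, with 0 of 5 higher in every metformin library. For the ILC1 and T cell sums the exact two-sided permutation p was 0.1, the smallest that 3 against 3 libraries allow, and 0.56 when adjusted over 14 marker lists. None of these 20 ILC1 and T cell markers was at 0 in any library. Xcl1 was also higher in every metformin library, and the part of ILC1 or T cells in its value was not tested.

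The other chemokine ligands gave no call either. Of 29 listed, 14 passed the filter, edgeR called 0, and 1 had an unadjusted p under 0.05, near the share of all genes (10.4%, and 5.29% higher). It was Cxcl13, a B cell attractant with a mean of 2.96 CPM with metformin and 1.11 CPM with PBS, named after its values were seen. Their median log2 fold change was 0.24, and 0.05 with the length offset. The platelet chemokines Pf4 and Ppbp had log2 fold changes of 0.23 (SE 0.32) and 0.08 (SE 0.29). Ccl22 had -0.07 (SE 0.31), Ccl25 -0.31 (SE 0.27) and Cxcl16, the ligand of CXCR6, -0.03 (SE 0.22).

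Among 7 receptors of the ligands, 6 passed the filter, edgeR called 0, and 1, Cxcr3, had an unadjusted p under 0.05, beside 10.4% of all genes. Cxcr3, the receptor of CXCL9 and CXCL10, had 499, 450.4 and 577 CPM with metformin, against 278, 358 and 335 CPM with PBS. All metformin values lay above all PBS values, with a log2 fold change of 0.65 (SE 0.13), an unadjusted p of 0.00116 and an adjusted p of 0.232 by edgeR, and 0.55 with the length offset. Xcr1, the receptor of XCL1 and a marker of dendritic cells, was at 7.22 to 8.06 CPM with metformin and 5.56 to 8.18 CPM with PBS.

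Other cytokines of NK cells included 4 of 11 tested with an unadjusted p under 0.05 and a higher metformin value, beside 5.29% of all genes, though edgeR called 0. Flt3l, a growth factor of dendritic cells, had 89.6, 89.6 and 107 CPM with metformin, against 68.2, 67.1 and 75.8 CPM with PBS (log2 fold change 0.44, SE 0.11, adjusted p 0.302 by edgeR). Ltb, lymphotoxin beta, had 295, 228 and 318 CPM with metformin, against 193, 202 and 206 CPM with PBS (log2 fold change 0.49, SE 0.13, adjusted p 0.312 by edgeR). For both genes the groups did not overlap. Tnf had 0.61 (SE 0.23), and Il2, named after its values were seen, 0.85 (SE 0.34). Ifng, the interferon that induces Cxcl9 and Cxcl10, had 70.7, 57.6 and 78.1 CPM with metformin, against 85.4, 67.5 and 68.8 CPM with PBS, with a log2 fold change of -0.10 (SE 0.15), and Osm had -0.15 (SE 0.15). The median of the list was 0.36, and 0.34 with the length offset. With that offset, Flt3l (0.00212) and Ltb (0.00767) kept an edgeR unadjusted p under 0.05, while Tnf (0.0634) and Il2 (0.0566) did not. Ifng then had a log2 fold change of -0.27 with an edgeR unadjusted p of 0.0334. In that fit 10.2% of all genes were under 0.05.

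Genes of pathways known to switch on chemokine genes showed no call in edgeR. Of 17 immediate-early genes, 1 had an unadjusted p under 0.05, near the share of all genes (10.4%, and 5.08% lower). This gene, Nr4a1, which responds to antigen receptor and other activating signals, had 44.1, 43.3 and 35.4 CPM with metformin, against 75.6, 64.2 and 66.7 CPM with PBS. All its metformin values lay below all PBS values (log2 fold change -0.75, SE 0.12, adjusted p 0.185 by edgeR). Fos had -0.43 (SE 0.23), Nr4a2 -0.11 (SE 0.14), Dusp2 0.10 (SE 0.11), Jund 0.14 (SE 0.09) and Jun 0.16 (SE 0.11). The list's median was 0.03.

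Of 12 NF-kB inducible genes, 0 had an unadjusted p under 0.05, beside 10.4% of all genes, 3 had estimates above 0 and 9 below, with a median log2 fold change of -0.15, and -0.07 with the length offset. Tnfaip3, an inhibitor of NF-kB signalling, had -0.35 (SE 0.15), Nfkb2 -0.23 (SE 0.10) and Bcl3 -0.22 (SE 0.11). Nfkbia, the inhibitor that NF-kB itself induces, had 0.10 (SE 0.13), Nfkbiz 0.10 (SE 0.18) and Birc3 0.05 (SE 0.13). With the length offset, Bcl3 had -0.31 and Tnfaip3 -0.21, with edgeR unadjusted p of 0.0096 and 0.0439. In that fit 10.2% of all genes were under 0.05.

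Of 20 interferon-inducible genes, the group that Cxcl9 and Cxcl10 belong to by induction, 1 had an unadjusted p under 0.05, near the share of all genes (10.4%, and 5.08% lower). Gbp3, a guanylate-binding protein, had 45.0, 43.8 and 35.0 CPM with metformin, against 75.0, 63.2 and 67.9 CPM with PBS, without overlap (log2 fold change -0.73, SE 0.13, adjusted p 0.196 by edgeR). Irgm1 had -0.11 (SE 0.10) and Irf1 -0.10 (SE 0.10), while Gbp2 had 0.20 (SE 0.10), Oasl1 0.32 (SE 0.23) and Isg15 0.38 (SE 0.22). The list's median was -0.05, beside 0.01 over all genes. With the length offset the list's median was 0.000255, and Isg15, a gene of 703 bases, had 0.09.

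The genes most like each ligand across the 6 libraries were found among 8873 protein-coding genes as the smallest root mean square difference in centred log2 CPM. For Ccl5 they were Ndufa7 (0.019), Vamp8 (0.029) and Bod1 (0.032), and for Ccl4 Cox20 (0.025), Tmem256 (0.056) and 0610012G03Rik (0.057). For Xcl1 they were Cd7 (0.050), Adgrl1 (0.055) and S100a6 (0.061). For Ccl3 they were 0610012G03Rik (0.089), Gm10131 (0.091) and Gtf2h5 (0.104), for Ccl6 Cfp (0.194), Susd3 (0.204) and Sccpdh (0.227), and for Ccl9 Gon7 (0.046), Naca (0.058) and Tex30 (0.060). No ligand was among the 3 nearest genes of another. Ccl4 differed from Ccl5 by 0.117, with 417 genes nearer to Ccl5, and from Ccl3 by 0.124, with 18 genes nearer to Ccl3. These libraries share the length trend, so likeness includes it.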

How the data were processed

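Libraries were made from total RNA with SMART-seq mRNA chemistry, per the labels' protocols; DRAGEN, GRCm39 and mm10 appear in the submitters' processing notes without a stated role. The authors deposited 1 table with an estimated count and a TPM value per gene and library, and 0 columns of values were left without a sample. The deposited estimated counts are not normalized, and 31.4% of the values above 0 are not whole. The deposited TPM sums to 1000000 per library and keeps no depth. Nothing in the labels or table states how reads shared between genes were assigned or whether strand was used.

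Estimated counts were rounded and tested with edgeR 4.0.16 (TMM, filterByExpr with a minimum count of 10, quasi-likelihood test, no covariate) in R 4.3.3, with Benjamini-Hochberg adjustment over 15527 genes. The spread between replicates was 27.3% (common biological coefficient of variation). DESeq2 1.42.0, limma-voom (limma 3.58.1), limma on log2(TPM + 1), other scalings and filters, a lowess offset (span 0.3) on log2 gene length and on GC content (known for 99.7% of tested genes), a replicate block and each library left out were alternatives. The code was tested on simulated data. Marker sums were compared with exact permutation tests (SciPy 1.17.1).

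The ligands, lists and tests were chosen with earlier results of these data known. All 9 ligands were named; of each other list, members with at least 5 CPM in either group, or the 3 with the smallest p in each direction where more than 6 qualified; of like genes, the nearest 3 to each ligand with at least 10 CPM. Promoters are from RefSeq, GRCm38.p6. A gene that this rule selects is not reported here.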

Additional observations from a re-analysis of the deposited data

How the results depend on the processing

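No ligand was called by edgeR or limma under any setting run, and Xcl1 alone was called by DESeq2 (adjusted p 0.00861, 1 ligand, among 299 genes). The log2 fold change of Xcl1 was above 0 in all 21 alternatives, at 0.105 to 0.743, with adjusted p from 0.00861 to 0.845. Ccl6 was above 0 and Ccl9 and Cxcl10 below 0 in every alternative that gave a value. All genes called were 0 with edgeR, 1 with no filter on low counts, 1 with the length offset, 1 with the length and GC offset, 3 with the replicate block, and 17 with the length offset without metformin library 3; leaving out each library gave 0 to 1. The unadjusted count with edgeR was 1610.

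The median over the ligands, 0.31, became -0.0136 with the length offset, -0.0197 with the length and GC offset, -0.014 with the replicate block and length offset, and -0.109 with the length offset without metformin library 3. Leaving out each library gave -0.0408 to 0.421, the lowest without metformin library 3. With 200, 500 and 1000 genes of like length, the fold change of a ligand less the median of its like-length genes was, at the median over the ligands, 0.02, 0.03 and 0.11.

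Some estimates that were not called changed sign, and the cause was not tested. Ccl3 was -0.00645 and -0.00644 in TPM (pseudocounts 1 and 0.1), -0.121 with the length offset, -0.116 with length and GC, -0.117 with the block and length offset, and -0.215 with the length offset without metformin library 3; leaving out each library gave -0.0408 to 0.35. Ccl5 was -0.0136, -0.0197, -0.014 and -0.0753 under those 4 offset fits, and Ccl4 was -0.0358 under the last. Cxcl2 was -0.109 under the last, and -0.103 to 1.34 with each library left out. Cxcl9 was -0.809 to 0.418 with each library left out, being 0.387 without metformin library 1 and 0.418 without PBS library 2.

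Replicate numbers are shared between the groups, but the labels tie them to no animal, batch or day. Deviations of same-numbered libraries correlated at 0.171, 0.0757 and 0.172, and each of 3 metformin libraries correlated best with its own number. The deviations are taken from group means, so the 3 matches are not independent. How often such matches arise by chance was not computed, and they do not establish a pairing. With the replicate block edgeR called 3 genes and 0 ligands, and Xcl1 had 0.63 with an adjusted p of 0.327. At 2 to 23 reads, Cxcl9 and most Cxcl2 values are limited by depth.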
